A study of Mus musculus with 6 samples.

Results

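A set of 10 genes of iron handling and metal binding was followed across liver, ovary and uterus of immature mice given fluorene-9-bisphenol (BHPF) or vehicle: Hamp and Hamp2, which encode hepcidins; Bmp6, a ligand of the bone morphogenetic protein (BMP) family; Trf, which encodes transferrin; Tfr2 and Tfrc, its receptors; Slc40a1, which encodes ferroportin; Fth1, the heavy chain of ferritin; and the metallothioneins Mt1 and Mt2. They were chosen by name, and every non-control probe whose RefSeq transcript carries one of these symbols was taken, which gave 13 probes of 10 genes among 55681 probes and 20284 gene symbols on the array. All animals were immature female CD-1 mice, an outbred stock, given as 24 days old in the labels, and received either BHPF at 50 mg/kg body weight daily by gavage for 3 days or its vehicle, peanut oil, which the BHPF groups received too. The 6 groups were control liver, control ovary, control uterus, BHPF liver, BHPF ovary and BHPF uterus, each measured on 1 one-colour Agilent array with RNA pooled from 3 mice. A group therefore had 1 array and no replicate, so no BHPF difference within a tissue has a test, and the spread between mice cannot be seen. Whether the pools of the 3 tissues came from the same mice is not given in the sources used here.

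Hepcidin is a peptide made by hepatocytes and released into blood. It binds ferroportin, the iron exporter of macrophages, enterocytes and hepatocytes, and causes its loss from the membrane, so that less iron reaches plasma. Its gene is switched on by BMP ligands made by liver endothelium, through hemojuvelin and SMAD proteins, and by interleukin-6 through STAT3 during the acute-phase response. Metallothioneins are small cysteine-rich proteins that bind zinc and copper, and their genes are induced by metals through the transcription factor MTF-1, by glucocorticoids and by inflammatory cytokines.

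The promoter windows of the hepcidin pair and of the metallothionein pair are shown because the genes of a pair differed on single arrays. On the BHPF uterus array Hamp was well above background and Hamp2 was not, and Mt1 had a larger difference than Mt2 in liver. Whether the sequences bear on these differences was not tested. Each line gives the last 150 bases before a start site of the RefSeq promoter table (assembly GRCm38.p6), 5′ to 3′ on the gene's strand. Capitals in the hepcidin lines mark GGCGCC, the core of a BMP response element, and TTCNNNGAA, the core of a STAT site. Capitals in the metallothionein lines mark the core of a metal response element (TGCACNC or TGCGCNC, on either strand).
Hamp, chr7:30944030-30944179, minus strand: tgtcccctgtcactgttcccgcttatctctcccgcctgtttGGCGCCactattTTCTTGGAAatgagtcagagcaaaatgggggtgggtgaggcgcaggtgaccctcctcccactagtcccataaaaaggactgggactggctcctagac
Hamp2, chr7:30924182-30924331, minus strand: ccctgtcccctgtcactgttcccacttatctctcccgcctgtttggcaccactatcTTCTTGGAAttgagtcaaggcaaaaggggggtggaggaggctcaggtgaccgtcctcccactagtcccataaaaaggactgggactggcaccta
Mt1, chr8:94178939-94179088, plus strand: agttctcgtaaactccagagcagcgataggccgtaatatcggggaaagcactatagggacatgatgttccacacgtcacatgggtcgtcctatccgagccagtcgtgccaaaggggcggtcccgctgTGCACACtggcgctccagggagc
Mt2, chr8:94172468-94172617, plus strand: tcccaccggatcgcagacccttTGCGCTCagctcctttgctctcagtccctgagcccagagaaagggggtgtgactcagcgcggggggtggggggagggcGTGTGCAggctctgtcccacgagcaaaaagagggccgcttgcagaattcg

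The Hamp window held GGCGCC at base -109 and TTCNNNGAA at base -97 from the start site. The Hamp2 window held TTCNNNGAA at base -94, and the letters GGCGCC were not in it. The pair was nearly alike otherwise, with 135 of 153 aligned columns identical (88.2%). The Mt1 window held 1 metal response element core and the Mt2 window 3 in 250 bases, of which 2 lie in the printed 150, and the 2 printed windows were identical in 80 of 166 aligned columns (48.2%). The start site used for Mt1 lies inside the gene, whose span in the gene table of this assembly begins at 94178883. The whole printed Mt1 window lies within that span, whereas the Mt2 window ends just before its gene. The metallothionein windows therefore do not lie at like distances from their genes' ends, and their counts of metal response element cores cannot be compared. Over the 250 bases before each of 32851 start sites, searched on both strands, 21.4% held a metal response element core, 9.59% held GGCGCC and 7.02% held TTCNNNGAA.

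Levels are given as the log2 intensity of a probe minus the 75th percentile of all probes on the same array, so a level of 0 is that percentile and 1 unit is a 2-fold step. A level belongs to its own probe and cannot be set against the level of another gene. Between 61.3% and 74.5% of the probes were well above background by the scanner software, and none was saturated. The only measure of error is technical. Probes printed in 5 or more spots and well above background gave a median SD of 0.0876 to 0.104 within an array on the log2 scale. From these a BHPF to control difference was given a technical SD of 0.136. This SD covers the spread of spots within 1 array. It leaves out labelling, hybridisation and differences between arrays, and it was not measured on dim probes. Differences within 2 such SD (0.272) are called within technical error below, and the usual threshold of 2-fold marks a called gene. A difference beyond technical error is thus beyond the spread of spots only. All control arrays lay in one row of the slide and all BHPF arrays in another, so that array position and treatment cannot be told apart.

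Both uterus arrays need a remark. The labels of the scanner files were used, but in the authors' table of log2 values the control uterus column holds the values of the BHPF uterus scanner file and the reverse, for all 38450 probes compared (within 0.001 after a constant), whereas liver and ovary columns matched their own files. With the table's headings every uterus difference below has the opposite sign. The array labelled BHPF uterus also carried signal of liver genes: 11 of 12 hepatocyte markers were at least 2-fold higher than on the control uterus array, with a median log2 difference of 4.03, and their summed level was 2.38 on the control uterus, 5.35 on the BHPF uterus and 8.61 on the control liver array (log2). Of the markers, Cps1, a urea cycle enzyme, was the one not well above background on the control uterus array. By summed level the tissue markers otherwise followed the labels, with all 8 ovary markers well above background on both ovary arrays. Detection alone did not separate the tissues. All 12 hepatocyte markers were well above background on both ovary arrays, with summed levels of 3.43 (control) and 3.57 (BHPF). Of the 8 ovary markers, 6 were well above background on the control uterus array.

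**Figure D1:**
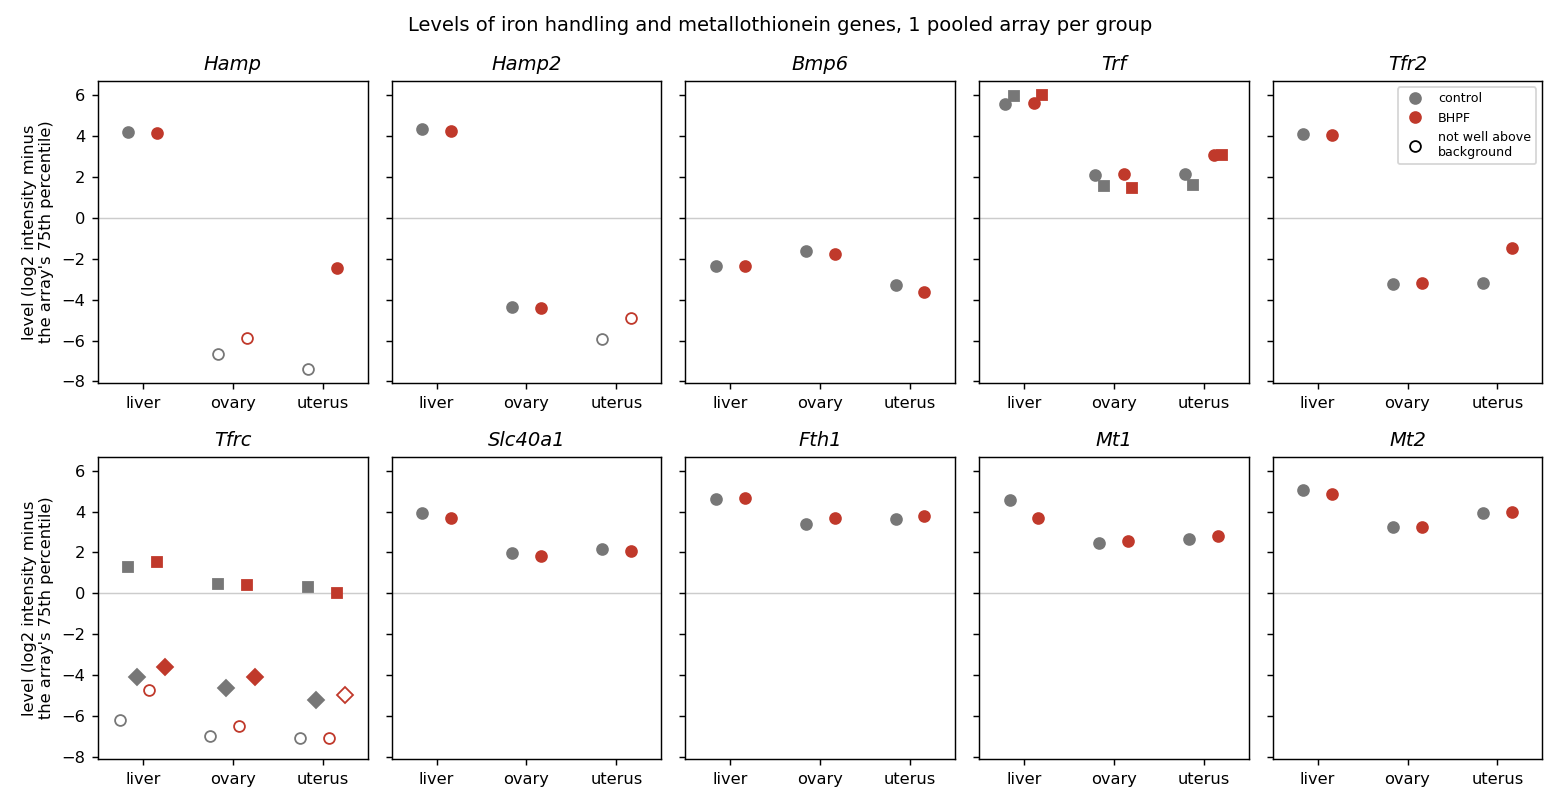
Level of every probe of the 10 genes (y axis, log2 intensity minus the array's 75th percentile) on the control (grey) and BHPF (red) array of each tissue (x axis), with 1 point per array, a shape per probe, and open points for probes not well above background. Hamp, Hamp2 and Tfr2 stood above 4 in liver and below -1 elsewhere, and Hamp on the BHPF uterus array was at -2.44 against -7.41, not well above background, on the control uterus array.

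In liver, hepcidin RNA was close to its control level after BHPF. Hamp stood at 4.21 on the control and 4.14 on the BHPF array, a log2 difference of -0.07. Hamp2, its duplicated neighbour, stood at 4.35 and 4.22, a difference of -0.13. Both differences were within technical error, and 36.7% of the 15530 genes evaluated in liver had a lower ratio than Hamp. With the background corrected another way (normexp on the median spot signal), Hamp was at -0.45 and Hamp2 at -0.11, so that the size of the Hamp difference depended on this choice.

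The genes listed as acute-phase proteins, most of which encode plasma proteins that hepatocytes make in inflammation, were lower on the same BHPF liver array. Of 23 such genes evaluated, 21 had a negative log2 ratio and 4 passed the 2-fold threshold downward. The median was -0.33, against a median of 0 over all genes, of which 47.6% were below 0. Saa3, a serum amyloid A, went from 4.72 on the control to 2.11 on the BHPF array, a difference of -2.61. The other called genes were Lcn2, an iron-scavenging lipocalin that binds bacterial siderophores (-1.19), Saa2 (-1.15) and Orm3, an orosomucoid (-1.15). Saa1 was at -0.94 and Orm1 at -0.72, under the threshold. Haptoglobin (Hp), which binds free haemoglobin, was at -0.07, and ceruloplasmin (Cp), the copper ferroxidase of plasma, at -0.26. A lower ratio than that of Hamp was found for 19 of the 23 acute-phase genes, and a lower one than that of Hamp2 for 18. With the normexp background 8 of the 23 had a lower ratio than Hamp and 22 a lower one than Hamp2, so that the place of Hamp above the acute-phase median held for the processed signal and not for normexp. A shift by another percentile moves all genes alike and cannot change that place. The ratio of Hamp2 was above that median with both backgrounds.

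The BMP-SMAD branch gave small differences in liver, and single genes of the interleukin branch gave larger ones. Of 14 regulators of the BMP-SMAD branch, none was called, and their median was -0.04. Bmp6 itself, the iron-induced BMP ligand, was at -2.37 and -2.34, a difference of 0.03. Bmp2, the other main endothelial ligand, was at -0.04, the co-receptor hemojuvelin (Hjv) at -0.28, the receptor Acvr1 at -0.22 (2 probes, -0.27 and -0.18), and Tmprss6, a protease that cleaves hemojuvelin, at -0.10. Of 6 BMP-SMAD target genes 5 were below 0, with a median of -0.11, Id1 at -0.08 and Smad7 at -0.09. The 2 largest were Smad6, an inhibitory SMAD, at -0.36 and Atoh8, a transcription factor, at -0.32. The list for interleukin-6 and STAT3 signalling has 16 genes. Il6 itself and Il22ra1 were not well above background on either liver array and were not evaluated. Among the other 14 genes 11 were below 0, with a median of -0.10. Il1b, which encodes interleukin-1β, was the called one (-1.55). Socs3, the STAT3-induced inhibitor, was at -0.85, and Stat3 at -0.05. Markers of neutrophils were lower as well, with negative ratios for 10 of 10, of which 7 passed 2-fold, and a median of -2.32. Their log2 summed level was 5.72 on the control and 4.56 on the BHPF liver array, and Elane, Mmp9 and Mpo were dim on the latter. Of 9 Kupffer cell and macrophage markers 6 were below 0, with a median of -0.24. Erythroid markers were below 0 in 7 of 7, with a median of -0.30, and their summed level was 5.83 and 5.67. Hepatocyte markers had a median of 0.05 and liver endothelial markers one of -0.04. In pooled tissue fewer cells of a type and less RNA per cell cannot be told apart, and the part of these cells in the liver differences was not tested.

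**Figure D2:**
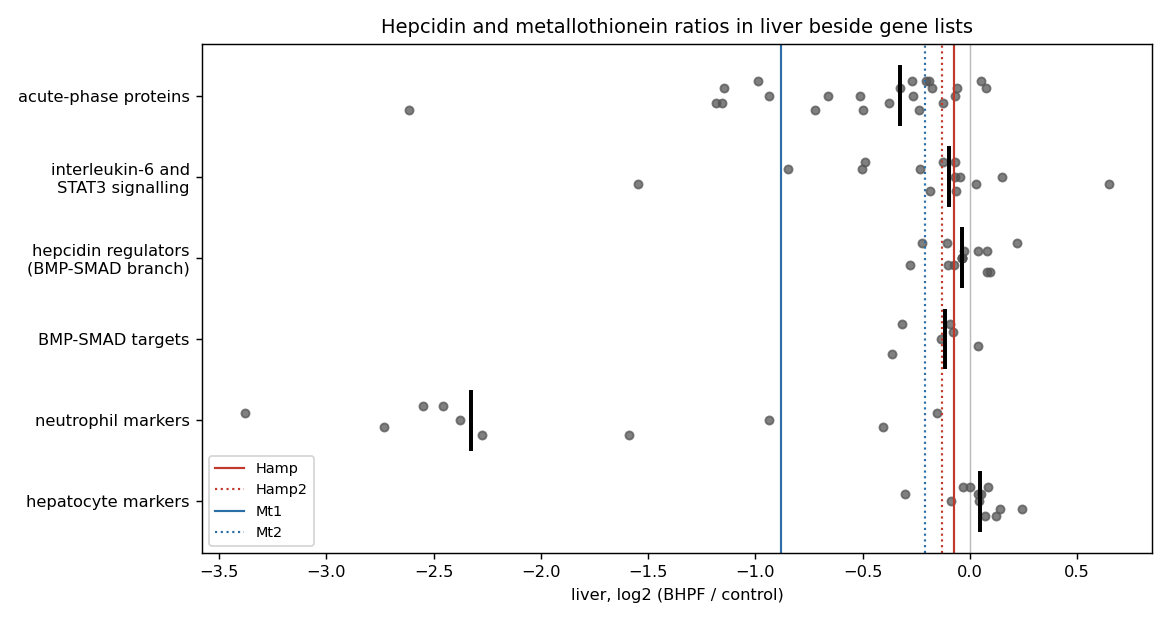
Log2 ratio of the BHPF over the control liver array (x axis) for each gene (points) of 6 gene lists (rows), with the list's median as a black bar and the ratios of Hamp, Hamp2, Mt1 and Mt2 as vertical lines. The acute-phase median (-0.33) lies left of both hepcidin lines (-0.07 and -0.13), Mt1 (-0.88) lies among the lower acute-phase genes, and the neutrophil markers have a median of -2.32.

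Mt1 had the largest difference of the 10 genes in liver. It stood at 4.58 on the control and 3.70 on the BHPF array, a difference of -0.88 or 1.84-fold lower. This was beyond technical error, short of 2-fold, and lower than the ratio of 97.9% of the genes evaluated. Mt2, which lies next to Mt1 on chromosome 8 and usually responds with it, stood at 5.06 and 4.85, a difference of -0.21, within technical error. With the normexp background Mt1 was at -0.61 and Mt2 at -0.32, and with quantile normalization at -0.93 and -0.26. Another percentile moves both alike (to -1.20 and -0.52 with the 50th). Of the 23 acute-phase genes 6 had a lower ratio than Mt1. The other genes of zinc and copper handling had no common direction. Of 22 evaluated, 12 were above and 10 below 0 (median 0.02) and none was called. Mtf1, the metal-sensing factor, was at 0.10 (2 probes, -0.03 and 0.24), and Slc30a1, a zinc exporter induced through it, at -0.23. Slc30a10, a manganese exporter, was at -0.59 and Atp7b, the copper exporter of hepatocytes, at 0.51. Genes induced by glucocorticoids, a second class of metallothionein inducer, gave 6 above and 8 below 0 of 14. Fkbp5 was at 0.18 and Tsc22d3 at -0.19. The 2 largest were Igfbp1 at 0.96 and Dusp1 at -0.76.

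The carriers, receptors and stores of iron differed little in liver. Trf, the plasma iron carrier, was measured by 2 probes, which stood at 5.58 and 5.93 on the control and at 5.61 and 6.01 on the BHPF array, differences of 0.03 and 0.07. Tfr2, the hepatocyte sensor of iron-loaded transferrin, was at 4.09 and 4.05 (-0.05), and Fth1 at 4.62 and 4.67 (0.05). Slc40a1 was at 3.91 and 3.67, a difference of -0.24, within technical error. Tfrc, the receptor through which most cells take up transferrin, is on the array 3 times. Its probe with repeated spots averaged 1.31 over 10 control and 1.52 over 9 BHPF spots, a difference of 0.21 with a spot standard error of 0.04, and the single spots of the 2 arrays overlapped. A dimmer probe went from -4.06 to -3.57 (0.49), and no array showed the last one well above background. Of the 10 genes none was called higher (3.2% of all genes were) and none lower (1.54%), and 8 were within technical error.

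The rest of the iron and haem pathways in liver had few large differences. Of 22 other genes of iron transport and storage 13 were above and 9 below 0 (median 0.06). The called one was Steap1 at 1.28, a dim probe that went from -5.07 to -3.79. Cybrd1, the ferric reductase, was at 0.59, likewise dim. The ferritin light chain Ftl1 was at 0.14, the importer Slc39a14 at -0.21 and the divalent metal transporter Slc11a2 at -0.07, whose 2 probes gave -0.28 and 0.14. Of 19 genes of haem synthesis and breakdown 11 were below 0 (median -0.08) and none was called. Slc48a1, a haem transporter, was at -0.59. Hmox1, haem oxygenase 1, was at -0.50, with its 2 probes at -0.73 and -0.27.

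**Figure D3:**
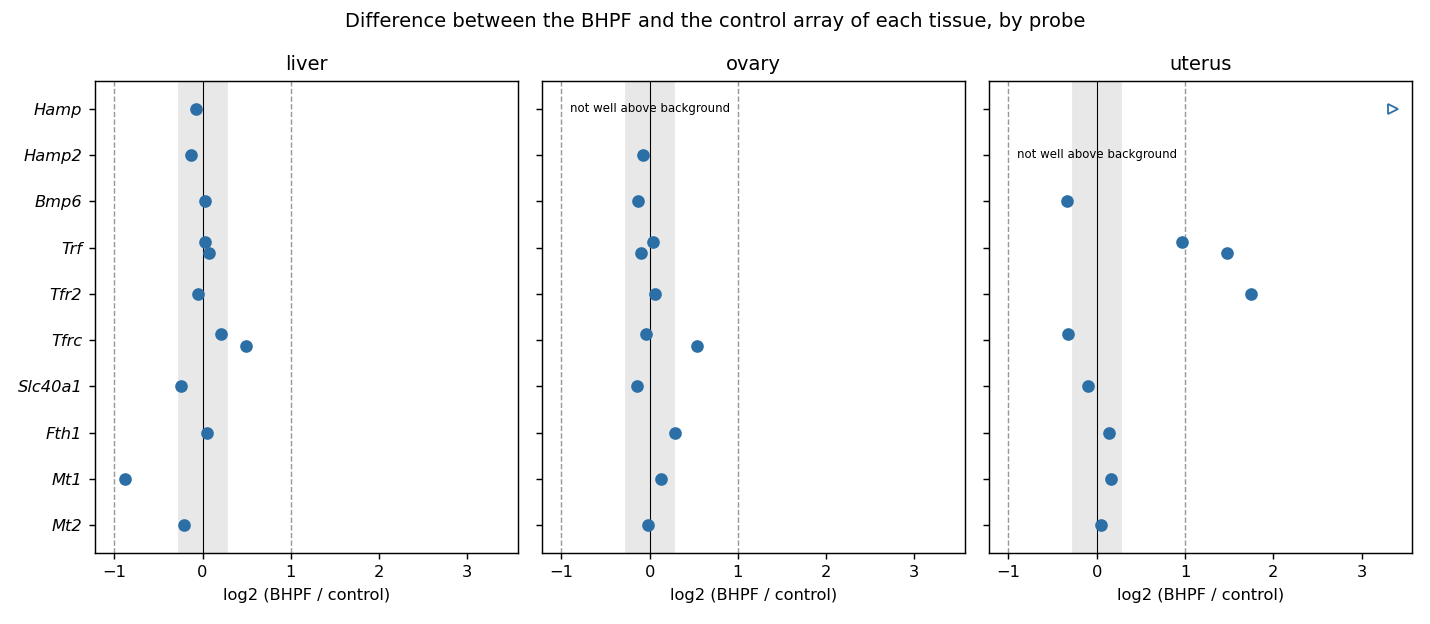
Log2 ratio of the BHPF over the control array (x axis) for probes of the 10 genes (rows) in liver, ovary and uterus (panels), with the band of 2 technical SD (0.272) in grey, the 2-fold threshold dashed, and an open arrow for a lower bound where the control array was not well above background. Probes not well above background on either array of a tissue are not drawn. The dimmer Tfrc probe, with a bound of 0 in uterus, is not drawn there. Mt1 lies at -0.88 in liver, and Hamp, Trf and Tfr2 lie at 0.96 or above in uterus.

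In ovary no member was called higher or lower, against 0.474% and 0.617% of all 16863 genes evaluated. Mt1 stood at 2.44 and 2.57 (0.13) and Mt2 at 3.27 and 3.25 (-0.01), both within technical error. Fth1 was the 1 member of 9 evaluated whose difference passed technical error, 3.40 on the control and 3.68 on the BHPF array (0.28). It passed narrowly, and 8.02% of all genes had a higher ratio. Under the other scaling and background settings it was as low as 0.19, within technical error. The repeated-spot probe of Tfrc gave -0.04 and its dimmer probe 0.54, so that the 2 probes disagreed. Neither ovary array showed Hamp well above background. Hamp2 was measured on both, at -4.35 and -4.43 (-0.07). Slc40a1 (-0.14), Bmp6 (-0.14), Tfr2 (0.06) and the 2 Trf probes (0.03 and -0.10) were within technical error. Id1, which BMP signals induce, was at -0.59 and Smad7 at -0.35. Of 19 acute-phase genes 12 were below 0, with Saa3 at -4.27, Lcn2 at -1.24 and Saa1 at -1.22, and with Saa2 at 1.13. Neutrophil markers had negative ratios in ovary for 8 of 8, of which 3 passed 2-fold (median -0.87, summed level 3.72 and 3.51), and of 8 macrophage markers 5 were negative and 2 passed 2-fold, the lowest at -2.71 (summed level 3.03 and 2.23). The part of these cells was not tested. Mt4, a metallothionein of squamous epithelium, was at 1.65, a dim probe that went from -6.11 to -4.46.

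In uterus 3 of the 9 members evaluated were at least 2-fold higher on the array labelled BHPF, and none was lower, against 2.27% and 0.823% of all 16161 genes. They were hepcidin, transferrin and its hepatic receptor. Hamp was not well above background on the control uterus array and stood at -2.44 on the BHPF array, at least 10.3-fold higher. Tfr2 went from -3.21 to -1.46, 3.35-fold higher. The 2 probes of Trf went from 2.12 to 3.08 and from 1.61 to 3.08, differences of 0.96 and 1.47. Hamp2 was not well above background on either uterus array. The remaining members were nearer to 0. Mt1 was at 0.16, Mt2 at 0.04, Fth1 at 0.14 and Slc40a1 at -0.10. Bmp6 went from -3.29 to -3.63, a difference of -0.33. The repeated-spot probe of Tfrc went from 0.33 to 0.0045, a difference of -0.32 with a spot standard error of 0.06 over 10 spots a side, and single spots overlapped. The dimmer Tfrc probe stood at -5.19 on the control array and at -4.97, not well above background, on the BHPF array. Its bound gave no difference (0), so that the fall was seen with the repeated-spot probe only. Beside the members, among 22 acute-phase genes evaluated 12 passed 2-fold upward and none downward, fibrinogen genes foremost (Fgg 5.03 and Fgb 4.54), while Saa1 (-0.64) and Lcn2 (-0.69) were lower by less than 2-fold. Tmprss6, a hepatocyte protease, was at 1.02.

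All called uterine members were higher in liver than in uterus, and their differences were set beside that of other liver genes on the same array. For 466 probes at least 64-fold higher on the control liver than on the control ovary and uterus arrays, the rise from the control to the BHPF uterus array was a median of 0.657% of the control liver level, with quartiles of 0.341% and 1.30%. The same measure on the ovary arrays was 0.0229%. Hamp had 0.960%, above 66.5% of these probes, and Tfr2 1.49%, above 77.9%. Hamp2 was dim on both uterus arrays, so that its share has only an upper limit, 0.167%, the whole of its BHPF uterus value. Of the 243 liver-specific probes with a control liver level from 3 to 5, 128 had a smaller share than Hamp and 165 a smaller share than Tfr2, and 4 other than Hamp2 itself had a smaller share than its limit. Of the same 243 probes, 237 were well above background on the array labelled BHPF uterus. The share was not the same at all levels, with a median of 0.304% for levels from 0 to 3, 0.897% from 3 to 5 and 3.18% from 5 up. Trf, which uterus also expresses, is not among the 466 probes, and its 2 probes rose by 8.62% and 8.86% of their control liver levels. After the median share over all 466 probes was subtracted, all 3 genes were still called, Hamp at 1.79, Tfr2 at 1.21 and Trf at 1.15. After the median share of a probe's own range of liver level was subtracted instead, a choice made after seeing the data, Hamp was no longer well above background, Tfr2 was at 0.95 and Trf at 0.89, and no member was called. The source of the liver signal was not tested.

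**Figure D4:**
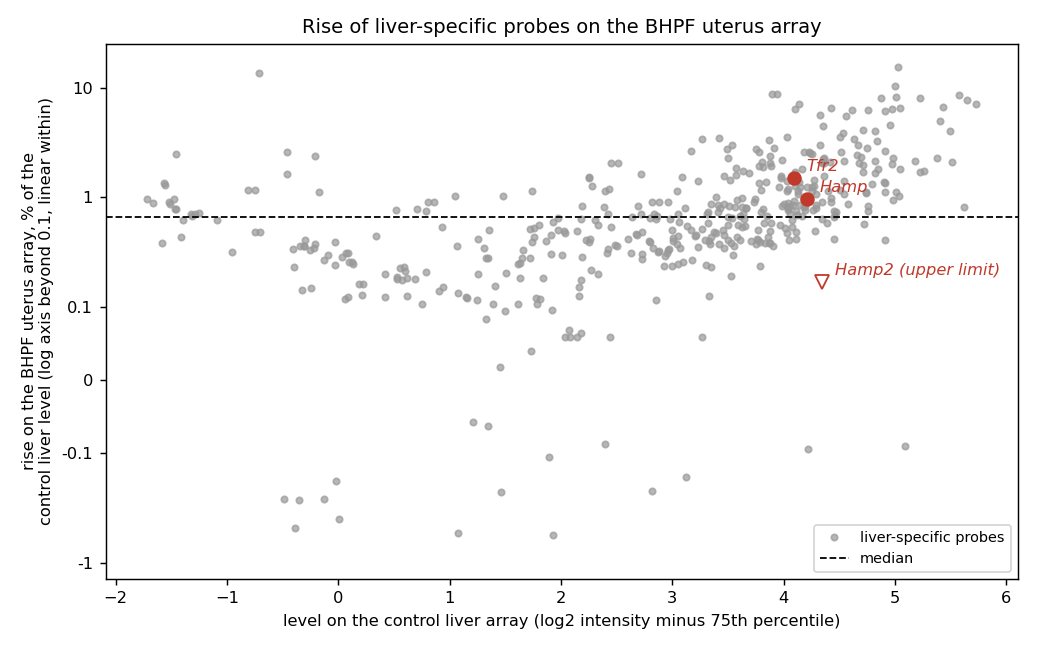
Rise from the control to the BHPF uterus array in percent of the control liver level (y axis, logarithmic beyond 0.1 and linear within) against the level on the control liver array (x axis) for 466 liver-specific probes (grey), with the median of 0.657% dashed and the 3 members among them in red. Hamp (0.960%) and Tfr2 (1.49%) lie among the other probes. Hamp2, dim on both uterus arrays, is drawn as an open triangle at its upper limit (0.167%), and 4 of the other probes at liver levels from 3 to 5 lie lower.

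The order of the tissues was tested with both arrays of a tissue, in one additive limma fit of tissue and treatment over the 6 arrays and 43892 probes, with p-values adjusted over all of them by the Benjamini-Hochberg method. The arrays of a tissue differ by treatment, so the spread in this fit rests on 2 residual degrees of freedom and holds any difference of the BHPF effect between tissues. Of the 12 member probes tested, 11 were higher and Bmp6 lower in liver than in ovary, and 12 were higher in liver than in uterus. Of all probes, 59.4% and 52.6% differed in either direction, and the share higher in liver was not counted. The percentile itself differs between tissues (intensities of 3292 to 3443 in liver, 6389 to 7500 in ovary and 4530 to 5335 in uterus), which lifts liver levels. Without scaling between arrays 7 member probes were higher and Bmp6 lower in liver than in ovary, and 7 were higher than in uterus. Of all probes, 67.4% and 53% then differed in either direction. The counts include Hamp, which was dim on 3 of the 4 arrays outside liver, and Hamp2, dim on both uterus arrays, for which bounds are given here.

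Hamp, Hamp2 and Tfr2 marked liver by far. Hamp in liver was at least 1184-fold above ovary, where it was not well above background. In uterus it was measured on 1 of the 2 arrays, at -2.44 against 4.21 and 4.14 in liver. Hamp2 in liver was 8.67 ± 0.35 (limma SE) above ovary on the log2 scale (adjusted p = 0.00073) and at least 787-fold above uterus. Tfr2 in liver was 7.27 ± 0.52 above ovary and 6.40 ± 0.52 above uterus (limma, adjusted p = 0.0016 and 0.0023), and ovary and uterus did not differ beyond their spread (adjusted p = 0.29). The Trf probes were 3.49 ± 0.30 and 4.47 ± 0.45 higher in liver than in ovary (limma, adjusted p = 0.0024 and 0.0034), with ovary and uterus again not told apart. For Tfr2 and Trf the BHPF uterus array, which carried liver signal, enters both the uterus mean and the spread of the fit. Tfr2 stood at -3.23 on the control ovary, -3.21 on the control uterus and -1.46 on the BHPF uterus array.

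Ferroportin, metallothioneins and ferritin were more evenly spread. Slc40a1 in liver was 1.90 ± 0.13 above ovary and 1.68 ± 0.13 above uterus (limma, adjusted p = 0.0015 and 0.0020), and remained called without scaling, at 0.86 and 1.13. Mt1 in liver was 1.63 ± 0.32 above ovary (limma, adjusted p = 0.017) and Mt2 1.70 ± 0.14 (adjusted p = 0.0022). Without scaling these were 0.59, which was not called, and 0.66, which was. The Mt1 call was also lost with quantile normalization (0.77, limma adjusted p = 0.13). Mt2 was 0.71 ± 0.14 lower in ovary than in uterus (limma, adjusted p = 0.038), a call lost without scaling (-0.21, adjusted p = 0.31). It was also lost with the 50th percentile (-0.57, limma adjusted p = 0.12) and with quantile normalization (-0.43, adjusted p = 0.090). Fth1, at 1.11 ± 0.14 above ovary (adjusted p = 0.0055), was at 0.07 without scaling (adjusted p = 0.70), so its tissue order rests on the scaling. The same holds for the repeated-spot probe of Tfrc, at 0.995 ± 0.18 above ovary (adjusted p = 0.014) with scaling and at -0.04 without it.

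Bmp6 had the only other order. It was highest in ovary, which stood 1.78 ± 0.15 above uterus (limma, adjusted p = 0.0063) and 0.67 above liver (liver minus ovary -0.67 ± 0.15, adjusted p = 0.025). The ovary stayed highest under every scaling tried, at 2.27 over uterus and -1.71 for liver minus ovary without scaling, while the call against liver was lost with the 50th percentile (-0.36, adjusted p = 0.13), with quantile normalization (-0.42, adjusted p = 0.068) and with the normexp background. Between ovary and uterus 3 of the 12 member probes differed, against 23.5% of all probes, namely Bmp6 and the dimmer Tfrc probe, which were higher in ovary, and Mt2. The Tfrc probe was dim on the BHPF uterus array, and its call was lost with the normexp background (limma, adjusted p = 0.080). The BHPF effect common to the 3 tissues was called for no member and no other probe (limma; 0% of 43892, of which 2294 had an unadjusted p under 0.05), with a smallest adjusted p of 0.77. The member nearest to it was the dimmer Tfrc probe, at 0.42 ± 0.12 higher with BHPF (unadjusted p = 0.028, adjusted p = 0.77).

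Likeness to other genes over the 6 arrays was measured as the root mean square difference of levels, each gene centred on its own mean, among genes well above background on the same arrays. Nearest to Hamp, among 41 candidates, were Mettl7b (0.219), F12, coagulation factor XII (0.223), and Mst1 (0.346). As the choice of candidates fixes, none was well above background on the control uterus or the ovary arrays, and F12 was at -2.70 on the BHPF uterus array. For Mt1, among 13717 candidates, Tha1 (0.104), Syn1 (0.131) and Man2b2 (0.132) came first, with Tha1 going from -1.33 to -2.01 in liver. Slc2a8, Gstk1 and Ugp2 were nearest to Slc40a1 (0.0558 to 0.0611), Usp26, Spsb1 and Mrpl28 to Tfrc (0.10 to 0.13), and Fanca, Rai14 and Tle4 to Bmp6 (0.108 to 0.153). A gene's pattern here averaged all of its probes, dim ones included. That of Tfrc thus holds all 3 of its probes, also the one that no array showed well above background. With so many candidates and 6 arrays these are descriptions of pattern only.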

How the data were processed

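RNA from liver, ovary and uterus, each pooled from 3 mice, was hybridised to 6 one-colour Agilent mouse arrays. The deposited scanner files hold Agilent Feature Extraction output (version 11.5.1.1 in the file headers, 9.1 in the submitters' processing notes, design build mm9), in which intensity is the processed signal, already corrected for background by the authors' software. A second deposited file gives the authors' own log2 values, percentile-shifted with GeneSpring GX per the study's methods. It was used as an alternative, as were normexp on median spot and median background signals, other percentiles, quantile normalization, other filters on dim probes, a 1.5-fold threshold and subtraction of the liver share.

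Spots of a probe were averaged on the log2 scale without control and outlier spots, and each array's 75th percentile was subtracted. Transcript accessions were named through the RefSeq table, which named 26762 of 55681 probes (48.1%), and 8 of the 10 genes had a promoter entry. Probes of a gene were averaged. A probe counted in a tissue if well above background on 1 of its 2 arrays. Where the other array was dim, the ratio is a bound, taken against the higher of that array's lowest intensity well above background and the probe's own value. With 1 array a group, only differences are given. The number of arrays limits the precision. Tissues were compared with limma 3.58.1 in R 4.3.3, a procedure tested on simulated data. Members and gene lists were chosen with earlier results of these data known. Named from the lists were genes at least 2-fold different, the 2 with the largest absolute ratio well above background on both arrays, and a fixed set of regulators. All such genes are printed for liver, and in ovary and uterus the lists are mostly given as counts.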

Additional observations from a re-analysis of the deposited data

Results flagged for a closer look

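Some BHPF to control differences had opposite signs in 2 tissues and lay at least 2-fold apart, with at least one of the values within technical error, so that an opposite direction is not shown. With 1 array per group, the difference between tissues was not tested for any of them. Hamp was at -0.07 in liver and at least 3.36 in uterus, a difference of -3.43. Tfr2 was at -0.05 in liver and 1.74 in uterus, a difference of -1.79, and Trf was at -0.03 in ovary and 1.22 in uterus, a difference of -1.25. The liver and ovary values of these genes were within technical error, and the uterus values are those beside which the liver signal of the BHPF uterus array was measured. Mt1 was at -0.88 in liver, 0.13 in ovary and 0.16 in uterus, so that liver differed by -1.01 from ovary and by -1.04 from uterus, and the ovary and uterus values were within technical error. The repeated-spot probe of Tfrc, less than 2-fold apart, was at 0.21 in liver and -0.32 in uterus, a difference of 0.53, with each value more than 2 spot standard errors from 0. The dimmer Tfrc probe was at 0.49 in liver and had a bound of 0 in uterus, so it did not show the fall. Spot errors cover the printing and scanning of 1 array and not the mice or the labelling.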

How the results depend on the processing

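Each alternative changed one choice, save the authors' table, which also has no bounds for dim probes. For liver, no member was called with the settings reported, and 1, Mt1, was called with the 50th percentile (-1.20) and 1 with a 1.5-fold threshold. Mt1 was at -0.61 and Hamp at -0.45 with normexp, and Hamp at -0.39 with the 50th percentile, which moved the median of all liver genes to -0.30. The acute-phase median in liver was -0.64 with the 50th percentile and -0.36 with quantile normalization. The cause of the normexp values was not tested. In uterus, the authors' table as headed reversed Hamp (-4.97), Trf (-1.22), Tfr2 (-1.74) and the acute-phase median (-1.96). The sign follows from its exchanged columns, and the sizes differ where bounds were dropped. With those columns exchanged back, an alternative chosen after seeing the data, Hamp was at 4.97, with no bound applied. With the median liver share subtracted, 3 members remained called, Hamp at 1.79 and Tfr2 at 1.21. Shares by level, also chosen after seeing the data, left 0 members called and an acute-phase median of -0.34, and the share of the brightest probes left 1 member called, with Tfr2 at -1.86 and the acute-phase median at -0.78, since that share exceeded the rise of Tfr2. Without scaling, chosen likewise, 7 member probes in place of 12 differed between liver and uterus. Of all member values under alternatives other than Mt1 and Hamp in liver, 218 moved by less than the technical SD and 45 by more, and 4 called ones turned. The 218 include values that could not move. Filters on dim probes cannot change a gene whose probes were all well above background on both arrays. Taking the brightest probe cannot change a gene with 1 probe. Under the 4 scaling and background settings 8 of the 28 member values changed sign at least once, all of them within technical error (at most 0.143 in size). No paired analysis was possible because each group has 1 replicate number, other than the additive fit, in which tissue is a block. Signal near background limits Hamp in ovary and on the control uterus array, and Hamp2 in uterus, to bounds.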
